A study of Mus musculus with 4 samples.

Results

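The genes described here are 10 that encode proteins of the cornified envelope, or help to build it, and that do not belong to a repeated gene family: loricrin (Lor), Prr9, Kprp, Crct1, cornifelin (Cnfn), sciellin (Scel), corneodesmosin (Cdsn), periplakin (Ppl), envoplakin (Evpl) and the protease Asprv1. They were taken as every non-control array probe carrying these gene names, which gave 11 probes of 39426 for 10 genes of 30340 genes or targets. Lor, Prr9, Kprp and Crct1 lie together on mouse chromosome 3 and the other 6 lie on 6 other chromosomes. The genes and the split by chromosome were chosen by their role in the envelope and with their calcium responses and genotype differences on these same arrays known, so every value below is a description and no count over the genes is independent evidence.

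Primary keratinocytes, the epithelial cells of the epidermis, came from newborn C57BL/6 mice that were labelled Pla2g2f+/+ (wild type) or Pla2g2f-/- (null). Pla2g2f encodes a secreted phospholipase A2, and the series asks how its loss changes the differentiation of these cells. After 3 days of culture the cells were kept for 48 h without added calcium or with 1 mM CaCl2, the usual trigger of terminal differentiation in such cultures. RNA of each of the 4 groups (+/+ untreated, +/+ with calcium, -/- untreated, -/- with calcium) was hybridised to 1 single-colour Agilent array. The RNA of each genotype is a pool over 6 mice, and genotype and cell preparation therefore cannot be told apart. Since every group is a single array, nothing below could be checked against replicates and no p-value is given.

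The cornified envelope is the protein shell that replaces the plasma membrane when a keratinocyte dies at the skin surface. Envoplakin and periplakin form a scaffold beneath the membrane, transglutaminases cross-link loricrin and other small proteins onto it, and ceramides are attached to its outer face. Loricrin is the most abundant envelope protein of the epidermis, and most envelope genes are switched on late, in the granular layer. Many of them, loricrin included, sit in the epidermal differentiation complex, a dense cluster of genes for cornification on mouse chromosome 3.

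Levels are log2 signals with each array's 75th percentile set to 0, and they are compared between arrays for the same probe only. The scanner's own error model gave the technical error of each difference, about 0.20 on the log2 scale for a bright probe, and this error holds no spread between cultures. On the 4 arrays 67.0% to 68.6% of probes were well above background, and 0 non-control spots were saturated. Of 8 keratinocyte markers, 7 were well above background on each untreated array and 8 on each calcium array, and their summed level was 348 and 365 times the 75th percentile in +/+ cells without and with calcium against 285 and 256 in -/- cells. The sums of 6 adipocyte markers (36.7 and 24.6 in +/+ cells, 113 and 90.0 in -/- cells), 6 mast cell markers (1.17 and 1.48, then 8.57 and 8.78), 6 macrophage and Langerhans markers (4.15 and 3.55, then 12.5 and 18.8) and 5 fibroblast markers (106 and 91.5, then 164 and 173) were higher in -/- cells, and their part in the genotype differences below was not tested. Among those markers Lep, Ms4a2 and Cd207 were not well above background on any array. The rise of the macrophage and Langerhans sum was not shared by all its markers. In both states 3 of 5 compared (Adgre1, Cd68 and Csf1r) were at least 2-fold higher in -/- cells. H2-Ab1 was lower (-0.72 log2 without and with calcium), and Cd74 stood at 0.13 without and -0.26 with calcium. The sums of 4 other marker lists were not higher in -/- cells in both states. Inner root sheath markers gave 5.63 and 9.01 in +/+ and 3.77 and 5.13 in -/- cells, and endothelial markers 2.5 and 2.84, then 1.77 and 1.72. Sebaceous markers gave 52.3 and 60.3, then 56.9 and 52.2, and melanocyte markers 39.3 and 44.0, then 39.7 and 30.8. These last sums were higher in -/- cells without calcium only. Krt1, a keratin of the layer above the basal cells, was the keratinocyte marker that was not well above background in untreated cells. Pla2g2f itself stood in -/- cells at 74.2% of its +/+ level without calcium and 71.1% with calcium, and since the labels do not give the deleted part of the gene, its single probe checks nothing about the genotype.

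All 10 genes were higher with calcium in both genotypes, each by more than 2-fold, a direction known when they were chosen. In +/+ cells the range ran from 2.38-fold for Evpl to 65.7-fold for Cnfn, with a median of 3.70 log2. Of all 21129 genes compared there, 2.47% reached 2-fold upward and 1.01% downward. In -/- cells it ran from 2.87-fold for Prr9 to 39.2-fold for Scel, with a median of 2.49 log2 (5.63-fold), and of 21428 genes 2.99% reached 2-fold upward and 0.602% downward. The median of all genes was -0.07 and -0.03 log2 in these responses. In bulk RNA such as this, more cells of a differentiated type and more RNA per cell cannot be told apart.

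**Figure D1:**
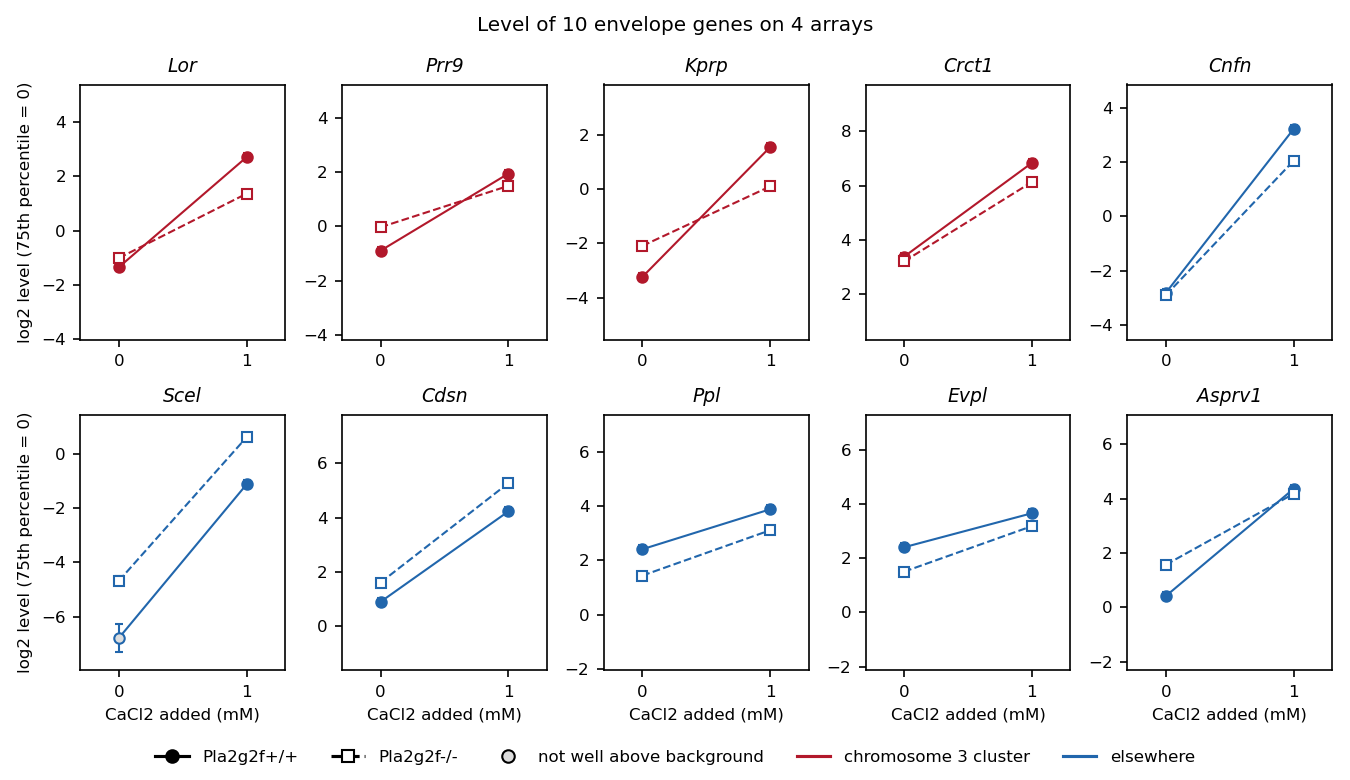
Log2 level of each of the 10 genes (75th percentile of the array = 0) without and with 1 mM added CaCl2, in +/+ cells (filled circles, solid lines) and -/- cells (open squares, dashed lines), 1 array per point with the scanner's error as bars; grey marks a signal not well above background, and red and blue mark genes on chromosome 3 and elsewhere. Each panel spans the same number of log2 units, and the lines of Lor, Prr9, Kprp and Asprv1 cross while those of the other 6 genes do not.

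The chromosome 3 genes responded to calcium in both genotypes and less so in -/- cells. The median response of the 4 was 3.76 log2 (13.5-fold) in +/+ cells and 2.28 (4.87-fold) in -/- cells. The difference of the responses, -/- minus +/+, was below 0 for 4 of 4, with a median over the 4 that corresponds to a response 2.83-fold smaller, and it passed 2-fold for 3 of 4. Of the 19227 genes measured on all arrays, 9027 lay below 0. At least 2-fold below 0 lay 0.629% of them, and 1.91% lay that far above. It could be computed for 5 genes elsewhere (median 0.20), of which 2 (Cnfn and Asprv1) also passed 2-fold below 0 and 3 lay above 0. On either side of the 2-fold limit the next values were -1.09 (Cnfn, inside) and -0.53 (Crct1, outside).

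Loricrin, whose probe lies on chromosome 3 at 91884206 to 91884265 (mm9, the build of the array files), had a level of -1.35 log2 in untreated +/+ cells, 2.71 in +/+ cells with calcium, -1.01 in untreated -/- cells and 1.36 in -/- cells with calcium. As unscaled signal this was 1037, 17907, 1436 and 8490 units. Its highest level was thus in calcium-treated +/+ cells, and its lowest, by a small margin, in untreated +/+ cells. The response was 16.6-fold in +/+ cells (4.06 ± 0.20 log2, scanner error) and 5.18-fold in -/- cells (2.37 ± 0.20), ranks 31 of 21129 and 104 of 21428. The difference of these responses was -1.68 ± 0.29 log2, a 3.21-fold smaller response in -/- cells. Most of it lay in the treated cells: with calcium the -/- signal was 39.3% of the +/+ signal (-1.35 log2), and without calcium the -/- signal was 1.26-fold higher (0.34 log2).

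Prr9, a small proline-rich protein gene, is the next gene along, with its probe at 91926126 to 91926185, 41.9 kb from that of Lor. Its levels in +/+ cells were -0.90 log2 untreated and 1.94 treated, and in -/- cells -0.03 untreated and 1.49 treated. The response was 7.16-fold in +/+ and 2.87-fold in -/- cells, a 2.49-fold smaller response in -/- cells (-1.32 ± 0.29 log2). Here the larger share came from the untreated cells, in which Prr9 was 1.82-fold higher in -/- than in +/+ cells (0.86 ± 0.20), whereas with calcium it was 1.37-fold lower (-0.45 ± 0.20). Scaling the arrays to basal keratinocyte genes turned the sign of the latter value to 0.03.

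Kprp, a keratinocyte protein rich in proline, had the largest difference between the genotypes' responses among the 9 genes for which it was computed. Its probe lies 743 kb from that of Lor, at 92627007 to 92627066. In +/+ cells it read -3.24 log2 before and 1.55 after calcium, in -/- cells -2.09 before and 0.10 after, so the -/- range lay inside the +/+ range. The response was 27.6-fold in +/+ cells and 4.57-fold in -/- cells, 6.03-fold smaller (-2.59 ± 0.29 log2), rank 14 from the lowest of 19227 genes. Both ends moved: Kprp was 2.21-fold higher in -/- cells without calcium (1.14 ± 0.21) and 2.73-fold lower with calcium (-1.45 ± 0.20). With normexp background correction the untreated difference was 0.89, less than 2-fold.

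Crct1, which encodes a small protein with a cysteine-rich end, had the smallest difference of responses of the 4. By its brighter probe, at 92818192 to 92818251, untreated cells stood at 3.39 log2 (+/+) and 3.22 (-/-) and treated cells at 6.84 (+/+) and 6.14 (-/-). The response was 3.45 log2 in +/+ and 2.92 (7.58-fold) in -/- cells, a difference of -0.53 ± 0.29 log2. Its other probe, at 92819202 to 92819261, was not well above background in untreated cells of either genotype, so it gave bounds of at least 35.8-fold in +/+ and at least 31.0-fold in -/- cells. With calcium the brighter probe read -0.70 and the other -1.28 for the log2 difference -/- minus +/+, so both lay below 0 and the latter passed 2-fold.

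The promoter sequences of 6 of the 10 genes could be matched by symbol in a table from RefSeq (GRCm38.p6), and 4 are shown so that genes on both sides of the split can be compared: Lor and Prr9 are neighbours on chromosome 3, and Scel and Cnfn are the genes elsewhere with the largest responses in -/- cells. Each is the 250 bases before the transcript start, 5′ to 3′ on the gene's strand, with capitals for TGANTCA, the core bound by AP-1 factors (both strands, which read alike), and for TATAAA (gene strand). They lie at chr3:92083143-92083392 (minus strand) for Lor, chr3:92123948-92124197 (minus) for Prr9, chr14:103513091-103513340 (plus) for Scel and chr7:25369725-25369974 (minus) for Cnfn.
Lor: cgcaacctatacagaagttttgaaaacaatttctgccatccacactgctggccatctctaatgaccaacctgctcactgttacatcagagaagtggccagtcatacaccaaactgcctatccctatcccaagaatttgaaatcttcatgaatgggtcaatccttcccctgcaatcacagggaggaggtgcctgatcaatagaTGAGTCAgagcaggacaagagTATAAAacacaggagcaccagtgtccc
Prr9: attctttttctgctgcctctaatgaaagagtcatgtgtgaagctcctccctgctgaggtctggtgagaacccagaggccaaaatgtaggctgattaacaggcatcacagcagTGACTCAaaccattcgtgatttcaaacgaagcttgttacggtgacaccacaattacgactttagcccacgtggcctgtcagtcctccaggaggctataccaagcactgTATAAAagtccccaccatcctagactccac
Scel: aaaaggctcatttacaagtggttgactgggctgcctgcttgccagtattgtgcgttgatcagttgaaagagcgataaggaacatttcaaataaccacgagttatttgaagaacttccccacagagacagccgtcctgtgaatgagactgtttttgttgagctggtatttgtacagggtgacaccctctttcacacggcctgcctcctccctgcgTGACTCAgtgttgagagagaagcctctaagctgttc
Cnfn: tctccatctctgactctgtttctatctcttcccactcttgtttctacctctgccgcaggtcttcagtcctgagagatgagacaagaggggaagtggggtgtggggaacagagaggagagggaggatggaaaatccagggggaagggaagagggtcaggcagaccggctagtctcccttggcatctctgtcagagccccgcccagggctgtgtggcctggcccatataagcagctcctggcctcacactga

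TGANTCA was found once upstream of Lor, Prr9 and Scel, beginning 48, 138 and 36 bases before the start, and in 6.75% of 32851 promoter windows of this length. Lor and Prr9 also share TATAAA, beginning 27 and 30 bases before the start, which 7.59% of windows hold on that strand. The grainyhead core AACCNGTT, searched on both strands, was in 0 of the members' windows and in 1.79% of all. The windows of Cnfn, Cdsn and Asprv1 held neither TGANTCA nor TATAAA. A match in these letters is a description and not a measured site, and the motifs were chosen with the sequences in view.

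Among the genes outside chromosome 3, cornifelin, a small protein, and sciellin, a larger precursor, are both built into the envelope and had the largest calcium responses of the 10 in -/- cells. In +/+ cells Cnfn was the highest, and the place of Scel there depended on the background correction, as given below. Cnfn (probe on chromosome 7, 26152727 to 26152786) stood at -2.82 log2 (+/+) and -2.91 (-/-) in untreated cells and at 3.22 (+/+) and 2.05 (-/-) after calcium. Its response of 65.7-fold ranked first of 21129 genes in +/+ cells, and in -/- cells its 31.0-fold response ranked 4 of 21428. The untreated genotypes differed by -0.08 ± 0.21 log2, within the scanner error, and with calcium Cnfn was 2.25-fold lower in -/- cells (-1.17 ± 0.20), so its 2.12-fold smaller response lay almost wholly in the treated cells. With scaling to basal keratinocyte genes that response difference was -0.94, under 2-fold. The Cnfn genotype differences were then 0.25 log2 without and -0.69 with calcium.

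Sciellin behaved in the other direction. The Scel probe (chromosome 14, 104012445 to 104012504) was not well above background in untreated +/+ cells, where it read -6.79 log2 against a limit of -6.07 on that array, and it read -1.12 with calcium, -4.68 in untreated -/- cells and 0.61 in -/- cells with calcium. Both -/- levels thus exceeded the +/+ level of the same treatment. The response was at least 30.8-fold in +/+ cells and 39.2-fold in -/- cells, and since the former is a bound, no difference of responses was computed. With normexp correction these values were 3.57 log2 in +/+ cells, below those of Kprp (4.39), Lor (3.93) and Asprv1 (3.93), and 4.65 in -/- cells, so the bound holds for the scanner's own correction only. Scel was at least 2.61-fold higher in untreated -/- cells and 3.33-fold higher with calcium (1.74 ± 0.20 log2). The untreated difference was 0.63 log2 with normexp correction, and the unscaled signals of 24 units in +/+ and 113 in -/- cells are near background.

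Corneodesmosin, the adhesive protein that holds dead surface cells together until they are shed, was likewise higher in -/- cells in both states. The levels of Cdsn (chromosome 17, 35693799 to 35693858) were 0.90 log2 (+/+) and 1.61 (-/-) before calcium and 4.23 (+/+) and 5.27 (-/-) after it. It was 1.64-fold higher in -/- cells without calcium (0.71 ± 0.20) and 2.06-fold higher with calcium (1.04 ± 0.20). The response was 10.1-fold in +/+ and 12.7-fold in -/- cells, and the difference of 0.33 ± 0.29 log2 barely passed the scanner error.

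The scaffold pair envoplakin and periplakin, plakin proteins that bind each other at the cell border, had the smallest responses in +/+ cells and the most similar profiles of any pair of the 10. Ppl (chromosome 16, 5086384 to 5086428) stood at 2.41 log2 in untreated +/+ cells, 3.88 in treated +/+ cells, 1.44 in untreated -/- cells and 3.11 in treated -/- cells. Evpl (chromosome 11, 116081921 to 116081980) stood at 2.40, 3.65, 1.5 and 3.18 in the same order. With each profile centred on its own mean over the 4 arrays, the root mean square distance between the pair was 0.12 log2, and the next nearest pairs were Lor with Crct1 (0.29) and Lor with Kprp (0.32).

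Ppl responded 2.77-fold in +/+ and 3.19-fold in -/- cells and Evpl 2.38-fold and 3.20-fold. Both were lower in -/- cells in each state: Ppl 1.96-fold without calcium (-0.97 ± 0.20 log2) and 1.71-fold with calcium (-0.77 ± 0.20), Evpl 1.86-fold (-0.90 ± 0.20) and 1.39-fold (-0.47 ± 0.20). None of these differences reached 2-fold. Scaling to basal keratinocyte genes brought the Evpl value with calcium to 0.00. The differences of the responses were 0.20 ± 0.29 for Ppl and 0.42 ± 0.29 for Evpl, the former within the scanner error.

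Asprv1, a retroviral-like aspartic protease that trims profilaggrin, read 0.41 log2 in untreated and 4.36 in treated +/+ cells, and 1.56 in untreated and 4.18 in treated -/- cells (chromosome 6, 86579351 to 86579410). The calcium-treated cells of both genotypes thus ended within the scanner error of each other (-0.18 ± 0.20), and the sign of that value turned with quantile scaling and with scaling to basal keratinocyte genes. Untreated -/- cells started 2.23-fold higher (1.15 ± 0.20). The response was 15.5-fold in +/+ and 6.13-fold in -/- cells, 2.53-fold smaller (-1.34 ± 0.29), a difference that lay in the untreated cells.

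**Figure D2:**
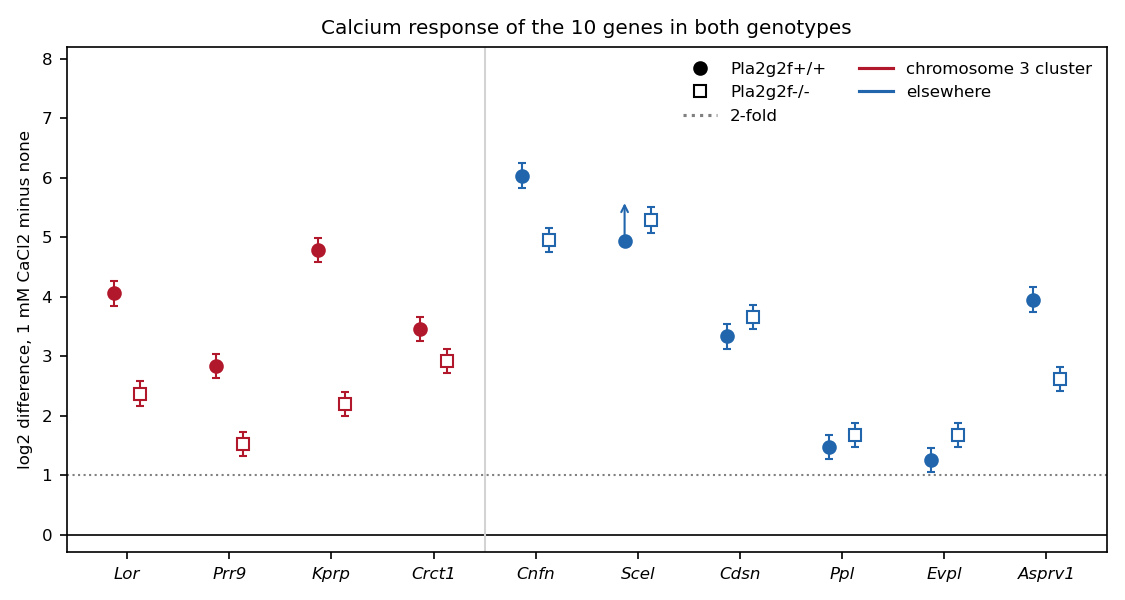
Calcium response (log2 difference, 1 mM CaCl2 minus none) of each gene in +/+ cells (filled circles) and -/- cells (open squares), 1 array per group and treatment, with the scanner's error as bars; the arrow marks the lower bound of Scel in +/+ cells and the dotted line 2-fold. All values lie above 2-fold, and the widest gap between genotypes is that of Kprp, 4.79 against 2.19.

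Set by genotype, the 10 genes moved in both directions. Of them 3 (Kprp, Scel and Asprv1) were at least 2-fold higher in untreated -/- than +/+ cells and 0 lower, where 4.65% of 21346 genes passed 2-fold upward and 4.32% downward. With calcium 2 (Scel and Cdsn) were at least 2-fold higher and 3 (Lor, Kprp and Cnfn) at least 2-fold lower, against 6.55% and 3.05% of 21564 genes. The median gene was itself at -0.18 log2 without and -0.16 with calcium. Relative to it, 8 of the 10 lay above without calcium, all but Ppl and Evpl and with Crct1 only just above, and 8 of the 10 lay below with calcium, all but Scel and Cdsn and with Asprv1 only just below. Scaling to basal keratinocyte genes, which moved the median gene to 0.15 and 0.32, gave 5 higher without calcium and 0 lower with calcium, where Lor stood at -0.87 and Kprp at -0.97.

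**Figure D3:**
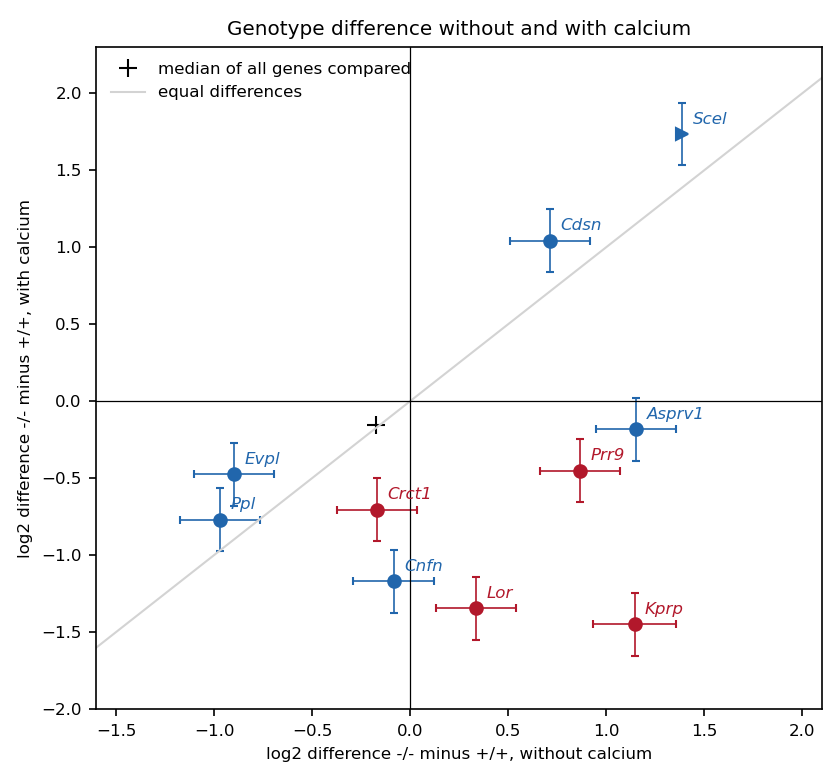
Log2 difference between genotypes (-/- minus +/+) without calcium on the horizontal axis and with calcium on the vertical axis for the 10 genes (red, chromosome 3; blue, elsewhere), 1 array per group, with the scanner's error as bars; the triangle marks the lower bound of Scel without calcium, the cross the median of all genes. Points below the grey line have a smaller calcium response in -/- cells, with Kprp (1.14 and -1.45) farthest from it.

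The 4 chromosome 3 genes were then set among their neighbours. Within 2 Mb of the Lor probe 112 genes or targets had a probe, and of the 84 measured on all 4 arrays 30 (35.7%) had a response at least 2-fold smaller in -/- cells, Lor, Prr9 and Kprp among them, and 0 had a difference at least 2-fold above 0. Within 1 Mb it was 28 of 48 (58.3%). Of all genes measured on all arrays the share was 0.629%. Most of the 30 belonged to 2 repeated families, with 16 of 18 measured late cornified envelope (Lce) genes and 7 of 12 small proline-rich (Sprr) genes. Of the S100a genes it was 0 of 13, and of the other genes or targets 4 of 37, with a median of -0.06. Between Lor and Crct1, a stretch of 934 kb that holds the Sprr genes and the Lce genes other than Lce1m, the median over 44 measured genes was -1.68, and over the other 40 in the window it was -0.07. The lowest values were those of the late cornified envelope genes Lce1d (-3.59), Lce1e (-3.36) and Lce1a1 (-3.15), and the highest those of the calcium-binding protein genes S100a8 (0.60) and S100a5 (0.64) and of a probe without a gene name (0.92).

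Genes close to the members ranged widely. The nearest measured gene or target on each side of a member is named here, chosen after the values were seen. Pglyrp3, a peptidoglycan recognition protein gene 48.8 kb before Lor, had a difference of -0.16, with responses of 2.79 log2 in +/+ and 2.63 in -/- cells. Lelp1, 13.2 kb beyond Prr9, stood at -0.35. Kprp, at -2.59, lay between Lce1k, 16.8 kb away, at -1.68, and Lce1l, 26.9 kb away, at -1.82. Crct1, at -0.53, lay between Lce3f, 21.1 kb away, at -2.79, and Lce1m, 3.64 kb away, at -0.82.

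**Figure D4:**
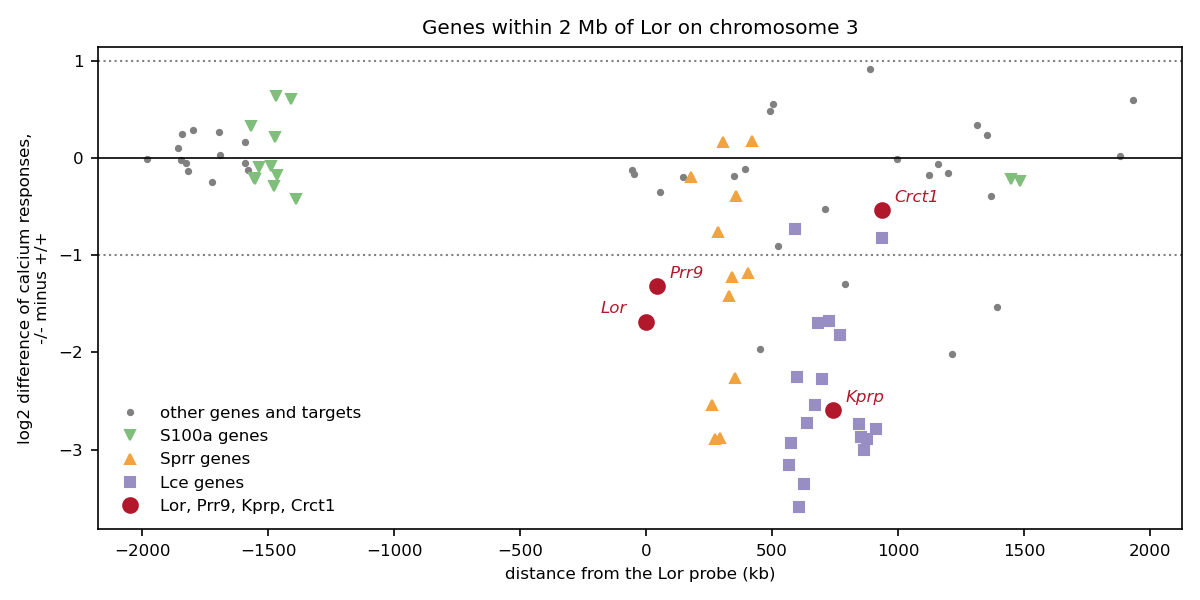
Difference of the calcium responses (log2, -/- minus +/+) for genes measured on all 4 arrays within 2 Mb of Lor, against the distance of their probe from the Lor probe in kb; symbols mark gene families, large red points the 4 genes Lor, Prr9, Kprp and Crct1, and dotted lines 2-fold. Values at least 2-fold below 0 begin at Lor, and 28 of the 30 lie between Lor and Crct1.

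By the root mean square distance between centred profiles, the gene most like Lor among 19218 other genes measured on all 4 arrays was Lce1h (0.06 log2), which encodes another envelope protein and lies on chromosome 3 too. It was followed by Rnf39 (0.22; chromosome 17), Mal (0.23; chromosome 2), Lce1i (0.24; chromosome 3) and Trex2 (0.30; chromosome X), a keratinocyte exonuclease. For Cnfn the nearest were the beta-defensin Defb14 (0.43), Gm20558 (0.53), Rnf222 (0.75), Cysrt1 (0.78) and the epithelial transcription factor Ehf (0.79), on 4 chromosomes other than that of Cnfn with Cysrt1 and Ehf on the same one. A likeness over 4 arrays is a description, and ranking by Pearson correlation, which ignores the size of the response, gave other genes, with 0 of 5 shared in either case.

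Other genes of envelope building were taken from lists and are given by their counts. For these lists too, a count is to be read beside the share of all genes past 2-fold. Upward and downward, those shares were 2.47% and 1.01% in the +/+ response and 2.99% and 0.602% in the -/- response. They were 4.65% and 4.32% between untreated genotypes, 6.55% and 3.05% with calcium, and 1.91% and 0.629% for the response difference. Of 28 partner genes (transglutaminases, further cross-linked or scaffold proteins and small late proteins), 24 could be compared in each calcium response, with 9 at least 2-fold higher in +/+ and 10 in -/- cells, 0 lower in either, and medians of 0.77 and 0.85 log2. These counts and medians include 4 lower bounds in each genotype. Over the 20 genes measured on both arrays the medians were 0.77 and 0.78 log2. Of those, 8 in +/+ and 7 in -/- cells were at least 2-fold higher. The cross-linking enzyme Tgm1 (4.36 in +/+, 3.28 in -/- cells), the secreted peptide gene Krtdap (4.51 and 2.87) and Sprr1a (4.05 and 2.87) had the largest measured responses in both genotypes. Of 20 partners measured on all arrays, 4 had a response at least 2-fold smaller in -/- cells and 0 larger (median -0.25), namely Krtdap (-1.64), Tchhl1 (-1.54), Sprr1a (-1.19) and Tgm1 (-1.08), while involucrin (Ivl), an early envelope precursor, stood at 0.49. The call of Tgm1 was lost with scaling to basal keratinocyte genes. In untreated cells 3 of 20 were at least 2-fold higher in -/- cells, Sprr4 (1.72), Krtdap (1.45) and Sprr1a (1.14), and 0 lower. With calcium 2 of 24 were at least 2-fold higher in -/- cells, Sprr4 (1.90) and Tgm5 (1.19), not far from the share of all genes (6.55%). Another 2 were at least 2-fold lower, Lelp1 (-1.13) and Tgm1 (-1.12), and scaling to basal keratinocyte genes left 0 lower. The median of the 24 was -0.38.

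Genes of the corneodesmosome and of shedding sit beside Cdsn. Of 14, 13 were compared, and 9 were at least 2-fold higher with calcium in +/+ and 10 in -/- cells (medians 2.24 and 3.65 log2, which count 3 and 2 lower bounds, against 2.66 over the 10 and 2.88 over the 11 measured on both arrays), led in +/+ cells by the kallikrein proteases Klk6 (5.17) and Klk7 (4.87) and the protease inhibitor Cst6 (4.74). In untreated cells 4 of 11 compared were at least 2-fold higher in -/- cells and 0 lower, among them Klk6 (2.62), Cst6 (2.52) and Klk7 (1.85). With calcium 6 of 13 were at least 2-fold higher in -/- cells and 0 lower and Cdsn itself stood at 1.04. The desmosomal cadherin Dsg1a (3.33), Cst6 (2.31) and Klk6 (1.79) were the highest measured on both arrays. Dsg1a was not well above background in untreated cells of either genotype. Its +/+ response was a bound of at least 0.41 log2, so the value of 3.33 rests on a +/+ signal near background. The 10 measured throughout had a median response difference of -0.22, with 0 past 2-fold either way.

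Genes of profilaggrin processing sit beside Asprv1, and of 10 listed 8 were compared. With calcium 2 were at least 2-fold higher in each genotype, the protease Prss8 (2.49 in +/+ cells) and the caspase Casp14 (2.21 in +/+, 2.22 in -/- cells), and Padi3, a deiminase, was at least 2-fold lower in +/+ cells (-1.06), a call lost with normexp correction and with scaling to basal keratinocyte genes. Between untreated genotypes 0 of 8 differed by 2-fold. With calcium Prss8 was at least 2-fold lower in -/- cells (-1.04), a call lost with scaling to basal keratinocyte genes. Of 12 genes for the lipids bound to the envelope, 4 were at least 2-fold higher with calcium in +/+ and 5 in -/- cells, among them the fatty acid elongase Elovl4 (2.58 and 2.94). The medians were 0.77 and 0.81, which count 1 lower bound each, against 0.71 and 0.93 over the 11 measured on both arrays in each genotype. The lipoxygenase Aloxe3 was lower in -/- cells without calcium (-0.86) and with calcium (-1.84). The fatty acid hydroxylase Cyp4f39 had a response difference of 1.49, with genotype differences of -0.94 without and 0.56 with calcium.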

How the data were processed

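The deposited scanner signals are an intensity made by the authors' scanner software, Agilent Feature Extraction 11.5.1.1, per the file headers and the submitters' processing notes, which subtracted background and a spatial trend array by array. The deposited series value table is a ratio of each signal to the 75th percentile of its array, found by comparison with the scanner files (largest relative difference 0.000583 over 44397 spots; medians 0.066, 0.0623, 0.0612 and 0.0645). The deposited files also hold other values, flags of 0 or 1 for spots well above background, saturated or outlying.

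The signal was taken as log2, outlier spots were dropped (105 to 116 of 43020 an array) and the array's 75th percentile (2638 to 3299 units) was subtracted. Of 39426 probes, 27507 were named through their accession and 11919 kept the file's name. The median SD over repeat spots was 0.07 log2. A gene was read from its brightest probe and compared where at least 1 of the 2 arrays was well above background. Against a dim array the difference is a bound ("at least"), set by the higher of the gene's value and the lowest probe well above background there. With single arrays no test applies. Calls are at 2-fold. The 2-fold calls were tested on simulated gene values with a spread of 0.07 log2 and no spread between cultures. The bounds were checked on measured genes with 1 array treated as dim. The steps before these were not simulated.

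The members and lists were chosen with earlier results of these data known. Genes named are the 10 members, per list and comparison the 3 largest differences measured on both arrays in each direction, the 5 nearest profiles to Lor and Cnfn, and the 3 lowest and highest differences within 2 Mb of Lor. Some that this rule names are left out. Flg and Col1a1, listed, had no probe under these names. Alternatives were normexp correction (offset 50), quantile scaling, scaling to probes well above background or to basal keratinocyte genes, averaging over a gene's probes, the value table, other filters, 3-fold calls, a 1 Mb window and Pearson likeness. Software was Python 3.11.15 with numpy 2.4.6 and pandas 2.3.3, and R 4.3.3 with limma 3.58.1.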

Additional observations from a re-analysis of the deposited data

Results flagged for a closer look

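For 4 of the 10 genes the difference between genotypes had opposite signs without and with calcium, -/- cells being higher before and lower after treatment. The difference of the 2 values was -1.68 log2 for Lor, -1.32 for Prr9, -2.59 for Kprp and -1.34 for Asprv1. Each rests on 4 arrays and was not tested. The share of all genes whose difference changes sign in this way was not computed, so the count of 4 has no background beside it. The treated value of Asprv1 lay within the scanner error, and those of Asprv1 and Prr9 turned above 0 under scaling to basal keratinocyte genes.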

How the results depend on the processing

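No paired analysis was possible because each group is 1 array and the labels carry no replicate numbers. Of 390 values of single members under an alternative, 334 lay within the scanner error of the reported value, 56 moved by more, and 0 of those called at 2-fold changed sign. Of the 49 pairs of member and comparison, 5 had the other sign under some setting, all below 2-fold. The untreated genotype difference had 3 members at least 2-fold higher, against 1 with normexp correction, 5 with scaling to basal keratinocyte genes and 0 at 3-fold. With calcium 2 higher became 1 at 3-fold, and 3 lower became 0 with basal scaling and 0 at 3-fold. The response differences at least 2-fold below 0 went from 5 to 2 at 3-fold. The genes most like Lor and Cnfn shared 0 of 5 with a ranking by Pearson correlation. Of 360 counts over the partner lists 35 moved by over 1.5 times. The cause of these changes was not tested. Signal over background limits Scel in untreated +/+ cells, whose difference of responses was -0.37 only with no filter on dim probes, and the dimmer Crct1 probe, and the number of arrays limits every value.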
